A study of Rattus norvegicus with 25 samples.

Results

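The genes described here are 9 members of 3 families that act at the output of the ERK (MAP kinase) pathway: the Sprouty genes Spry1, Spry2 and Spry4, the Spred genes Spred1, Spred2 and Spred3, and the ETS transcription factor genes Etv1, Etv4 and Etv5. They were taken by symbol from a table of 28909 gene names, and all 9 were among the 14142 genes with enough reads to be tested. RNA came from the ipsilateral striatum of 25 female Sprague Dawley rats, all lesioned with 6-OHDA, a toxin that destroys dopamine neurons and models Parkinson's disease. Every arm received levodopa at 6 mg/kg QD, which the series pairs with benserazide, an inhibitor of decarboxylation outside the brain. The arms were levodopa alone (n = 5) and, at n = 10 each, the same levodopa dose plus trapidil at either 7.5 or 15 mg/kg BID, dosed for 14 days, with striata collected on day 15 around 1 hour of dosing. Trapidil is an antagonist of platelet-derived growth factor that also inhibits phosphodiesterases. No group without the lesion or without levodopa was analysed here, no age was given in the sources used here, and all 3 arms share both. The series assigned 25 animals at random to arms of these sizes, so each library is taken as 1 animal.

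When a growth factor receptor or, in striatal neurons, a dopamine D1 receptor activates Ras, the kinases RAF, MEK and ERK are switched on in turn. ERK then drives transcription of its own inhibitors. Sprouty proteins interfere with the signal between receptor and RAF, and Spred proteins bring the Ras-inactivating protein neurofibromin to the membrane. Etv1, Etv4 and Etv5 form the PEA3 group of ETS factors, which are switched on by fibroblast growth factor signalling and carry it into transcription. In the dopamine-depleted striatum, levodopa is known to activate ERK in spiny projection neurons.

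The DNA next to the start of a gene is 1 place where such control can be read. Only that stretch was searched here, so a missing match does not bear on sites elsewhere. RefSeq promoter windows of the GRCr8 assembly were found for 8 of the 9 members (9 windows, since Spry2 has 2), and the 250 bases before each start were searched on both strands. The ETS motif CCGGAAGT was in 0 of the 9 windows and in 3.1% of the 33469 rat windows of this length. Its shorter core CCGGAA, which also matches inside that motif, was in 2 member windows, 1 of Spry2 and that of Spry4, against 12.6% of all windows. The cAMP response element TGACGTCA (1.59% of all windows) and the AP-1 site TGANTCA (6.34%) were in 0 member windows. The CArG box of serum response factor was in that of Etv1 (1.5% of all windows). The member windows held 52.4% to 74.8% G or C, against a median of 51.2% over all windows. The shares over all windows are thus not matched for base content. The windows of Spry2 and Etv1 are shown because they hold a match, with the match in capitals. Those of Spred1 and Spred2 are shown because these genes had the highest correlation between members across animals, and neither holds a match. The GRCr8 positions are chr15:89111927-89112176 (minus strand) for Spry2, chr6:61317179-61317428 (plus) for Etv1, chr3:124436980-124437229 (plus) for Spred1 and chr14:98350327-98350576 (plus) for Spred2.
Spry2: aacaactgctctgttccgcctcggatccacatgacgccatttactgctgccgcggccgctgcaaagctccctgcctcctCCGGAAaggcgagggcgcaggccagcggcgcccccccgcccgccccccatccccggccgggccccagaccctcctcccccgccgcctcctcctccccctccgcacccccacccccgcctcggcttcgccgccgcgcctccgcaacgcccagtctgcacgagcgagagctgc
Etv1: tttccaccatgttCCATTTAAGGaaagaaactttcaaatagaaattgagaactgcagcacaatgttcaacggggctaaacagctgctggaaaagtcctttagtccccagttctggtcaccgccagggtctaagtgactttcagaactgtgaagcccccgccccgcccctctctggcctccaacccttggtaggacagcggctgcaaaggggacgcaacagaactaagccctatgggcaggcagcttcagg
Spred1: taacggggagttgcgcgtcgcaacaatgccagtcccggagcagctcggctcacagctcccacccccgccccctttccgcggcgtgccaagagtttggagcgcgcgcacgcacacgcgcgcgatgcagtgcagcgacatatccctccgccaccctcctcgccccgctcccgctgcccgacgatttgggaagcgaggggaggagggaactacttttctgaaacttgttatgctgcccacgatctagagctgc
Spred2: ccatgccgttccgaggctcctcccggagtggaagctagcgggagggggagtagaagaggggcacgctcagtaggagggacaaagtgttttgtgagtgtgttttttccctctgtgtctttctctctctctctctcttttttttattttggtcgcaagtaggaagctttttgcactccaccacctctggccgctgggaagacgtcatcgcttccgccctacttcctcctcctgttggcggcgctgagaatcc

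Total gene counts ran from 10838513 to 20532290 per library. All 12 markers of spiny projection neurons were detected, with a summed level of 9558 to 16880 CPM (counts scaled to a common library size, with TMM factors). Cortical neuron markers summed to 25.7 to 84.7 CPM. They were highest in the 7.5 mg/kg replicate 1 (84.7 CPM), levodopa replicate 5 (72.3 CPM) and the 7.5 mg/kg replicate 6 (61.3 CPM). The library labelled levodopa replicate 2 stood apart in cell type markers. Its endothelial markers summed to 1000 CPM against 470 to 625.5 CPM in the other 24 libraries, with 11 of 12 markers in the table detected and Cldn5 listed at 0 in every library. Its astrocyte markers summed to 7265 CPM against 2910 to 4924 CPM, and its spiny neuron markers to 9558 CPM against 12720 to 16880 CPM. In bulk tissue fewer cells of a type and less RNA per cell cannot be told apart. Without it, genes called at 15 mg/kg against levodopa were 20 where they had been 185. The count moved with other levodopa animals too, to 9 without replicate 3 and to 894 without replicate 4. Levodopa replicate 4 had the highest ciliated ependymal marker sum of its arm, 34.5 CPM against 2.5 to 16.7 CPM in the other levodopa libraries. That sum lay within the range of both trapidil arms. The members' values without replicate 2 are given beside their results where they moved by over 1.5 times. Both trapidil comparisons use the same 5 levodopa libraries.

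No member passed the test in any of the 3 comparisons, although 5 of 9 leaned higher at 15 mg/kg. With edgeR's quasi-likelihood test and Benjamini-Hochberg adjustment over all 14142 genes, 0 of 9 members passed an adjusted p of 0.05 at 15 mg/kg against levodopa, where 1.31% of all genes did. At an unadjusted p below 0.05 there were 5 members, Spry4, Spred1, Spred2, Spred3 and Etv5, all higher, beside 8.26% of all genes in that direction. DESeq2 called 3 of them higher (Etv5, Spred1, Spred3), where it called 1.56% of all genes higher, and limma-voom called 3 (Etv5, Spred1, Spry4), where it called 2.11% higher. The median log2 fold change of the members was 0.29 with 7 of 9 positive, and that of all genes was 0.00 with 49.8% negative.

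At 7.5 mg/kg against levodopa 0 of 9 members passed with edgeR, where 0.0283% of all genes did, and 0 with DESeq2 or limma-voom, which called 0.375% and 0.721% of all genes. At an unadjusted p below 0.05 there were 3: Spry2 lower, beside 6.64% of all genes, and Spred2 and Spred3 higher, beside 5.02%. The members' median was 0.14. Between the doses 0 of 9 passed with edgeR, where 0.0283% of all genes did, and 0 with DESeq2 or limma-voom, which called 0.0424% and 0.0919%. Spry4 and Etv5 were higher at 15 mg/kg at an unadjusted p below 0.05, beside 1.49% of all genes higher and 2.14% lower, and the members' median was 0.11 with 8 of 9 positive. The ranges of the arms overlapped for all 9 members in all 3 comparisons, as for nearly all genes. Over all genes the ranges were separate for 0.0283% (higher) and 0.0636% (lower) at 7.5 mg/kg, for 0.318% and 0.389% at 15 mg/kg, and for 0 genes between the doses.

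**Figure D1:**
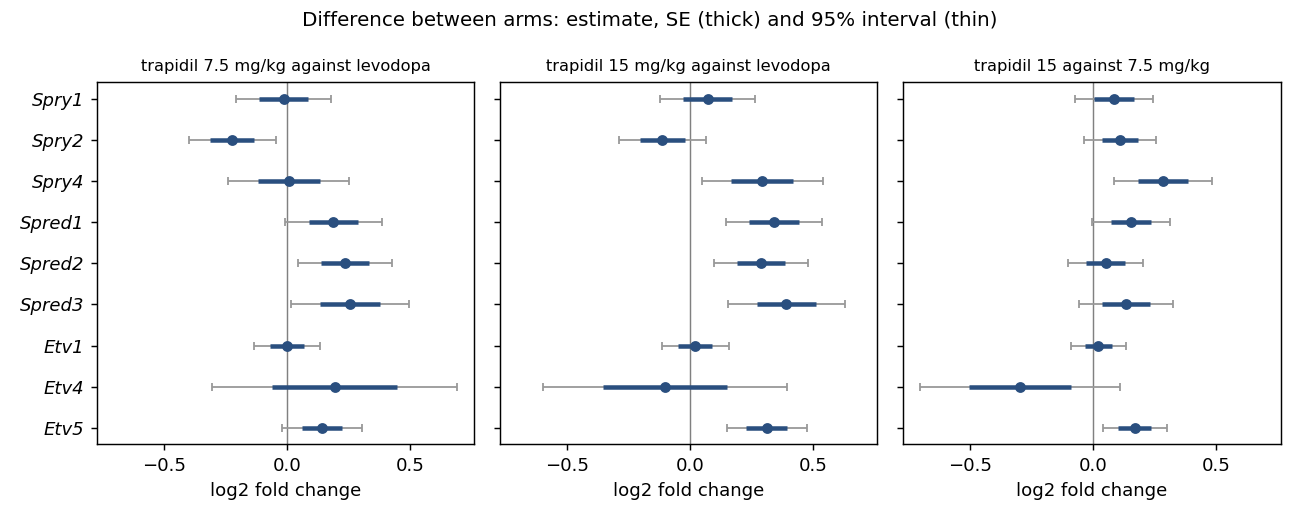
Log2 fold change (x axis) of each of the 9 genes (y axis) in the 3 comparisons from the edgeR fit, with the SE as a thick bar and the 95% interval as a thin bar. At 15 mg/kg against levodopa the thin bars of Spry4, the 3 Spred genes and Etv5 lay above 0, and Spry2 was the lowest estimate at each dose against levodopa; none passed after adjustment over all genes.

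None of the 3 Sprouty genes passed; at 15 mg/kg against levodopa the estimate was negative for Spry2 and positive for Spry4. Spry2, a feedback inhibitor of receptor tyrosine kinase signalling, was at 78.25, 48.4, 75.1, 55.1 and 75.4 CPM in levodopa replicates 1 to 5. It ran from 49.55 to 64.65 CPM (median 57.0) at 7.5 mg/kg and from 54.5 to 71.6 CPM (median 61.7) at 15 mg/kg. Levodopa replicates 1, 3 and 5 were thus above every trapidil animal, while replicates 2 and 4 lay at the low end, so the arms overlapped. The log2 fold change at 7.5 mg/kg was -0.22 ± 0.09 (SE; edgeR adjusted p = 0.359), with 10 of 10 animals below the levodopa mean. The 15 mg/kg value was -0.11 ± 0.09 (adjusted p = 0.523), and between the doses 0.11 ± 0.07 (adjusted p = 0.999). The coefficient of variation of Spry2 was 20.6% over the 5 levodopa animals, 8.88% at 7.5 mg/kg and 8.20% at 15 mg/kg. The edgeR fit pools the spread of the arms, so its errors can be too small for a comparison with the levodopa arm.

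Spry2 depended on how levodopa replicate 2 was treated. Without it the 7.5 mg/kg value was -0.31 ± 0.08 (edgeR adjusted p = 0.211) and the 15 mg/kg value -0.20 ± 0.08 (adjusted p = 0.285). With the endothelial marker score in the design, Spry2 fell at 7.5 mg/kg, by 0.44 ± 0.08 on the log2 scale (edgeR adjusted p = 0.0139). It was the 1 member called in that fit, which called 0.0707% of all genes lower, and its 15 mg/kg value there was -0.34 (adjusted p = 0.0937). The score was 3.34 in levodopa replicate 2 and at most 0.61 in any other library. That fit thus cannot tell endothelial content apart from this 1 animal. Over 14 alternatives other than leaving out 1 library, the value of Spry2 at 7.5 mg/kg stayed negative, from -0.44 to -0.19, with adjusted p from 0.0139 to 0.632.

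Spry4, a Sprouty that acts on the same pathway, was at 7.21, 13.5, 8.16, 9.88 and 7.66 CPM in levodopa replicates 1 to 5. Its range was 7.69 to 11.6 CPM (median 9.39) at 7.5 mg/kg and 9.20 to 13.4 CPM (median 11.5) at 15 mg/kg. Levodopa replicate 2 held the highest Spry4 level of all 25 animals and the lowest Spry2 level. Against levodopa, Spry4 was at 0.01 ± 0.13 (edgeR adjusted p = 0.986) at 7.5 mg/kg and 0.29 ± 0.13 (adjusted p = 0.1945) at 15 mg/kg. Between the doses it was at 0.29 ± 0.10 (adjusted p = 0.999), with 5 of 10 animals at 15 mg/kg above every animal at 7.5 mg/kg. Without levodopa replicate 2 the 15 mg/kg value was 0.46 ± 0.12 (adjusted p = 0.105) and the 7.5 mg/kg value 0.18 ± 0.12 (adjusted p = 0.817). Limma-voom with quality weights, which lowers the weight of libraries that stand apart, called Spry4 at 15 mg/kg (0.46, adjusted p = 0.0149).

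Spry1, the other Sprouty member, ran from 7.00 to 8.88 CPM with levodopa, 6.115 to 9.71 CPM at 7.5 mg/kg and 6.93 to 9.655 CPM at 15 mg/kg, with medians of 7.43, 7.60 and 8.28 CPM. The log2 fold change was -0.01 ± 0.10 at 7.5 mg/kg and 0.07 ± 0.10 at 15 mg/kg (edgeR adjusted p = 0.971 and 0.735). The 95% interval around the latter ran from -0.12 to 0.27. Without levodopa replicate 2 the values were -0.05 and 0.04 (adjusted p = 0.963 and 0.930). Spry3, the other Sprouty gene in the table, was not a member and is named for its family. It was at 0.18 ± 0.13 at 7.5 mg/kg and 0.38 ± 0.13 at 15 mg/kg (edgeR adjusted p = 0.592 and 0.0977), and did not pass.

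**Figure D2:**
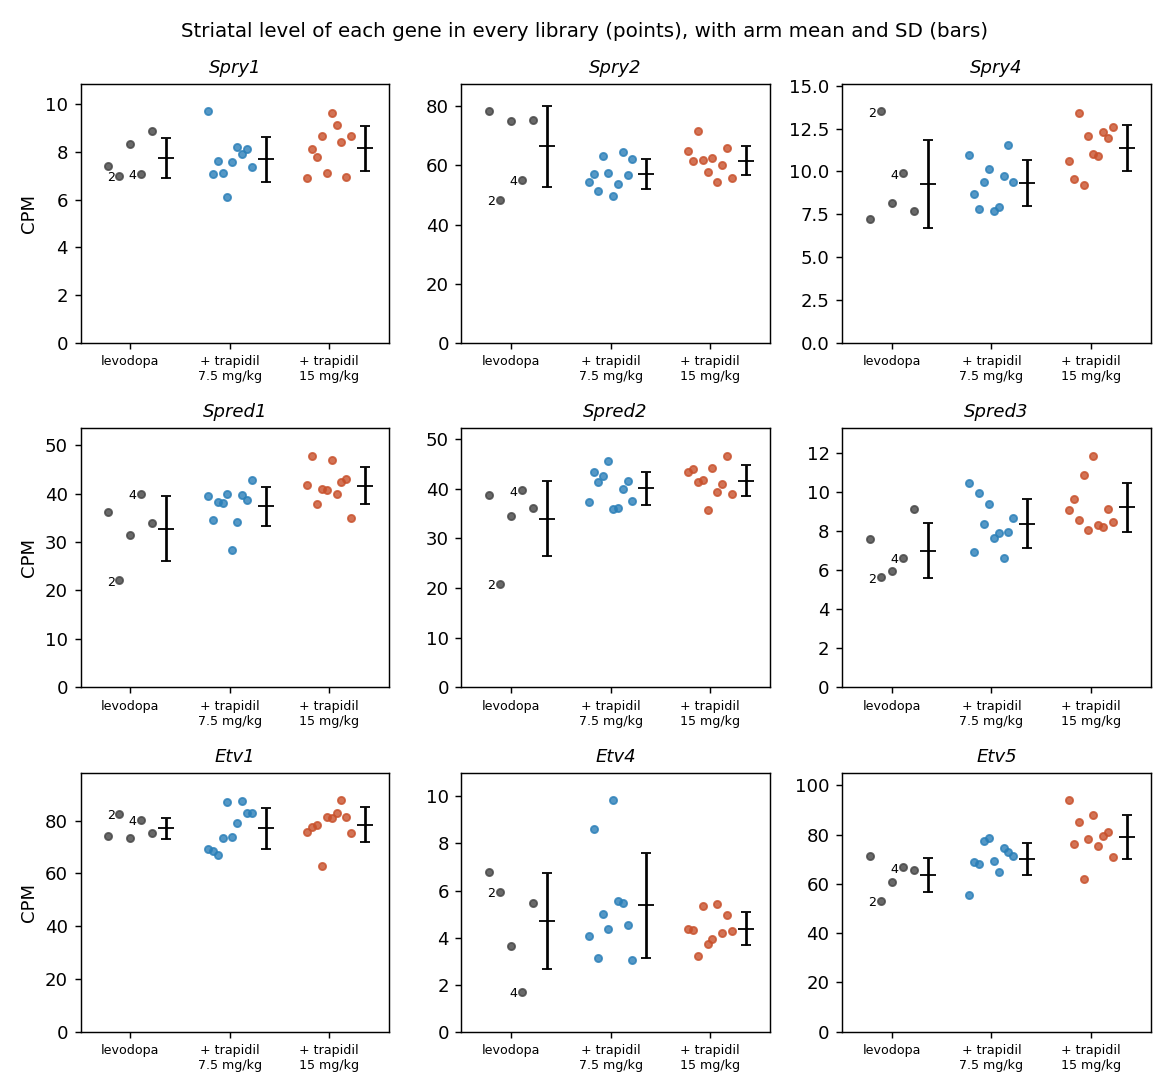
CPM (y axis, from 0) of each gene in every library (points) by arm (x axis), with the arm mean and SD as a bar beside the points; levodopa replicates 2 and 4 are numbered. Spred1 and Spred2 have 1 low levodopa animal, replicate 2, at 22.1 and 20.9 CPM, while in Spry2 replicates 2 and 4 lie below the other 3 levodopa animals.

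All 3 Spred genes leaned higher with trapidil at both doses. Spred1, whose loss in humans causes Legius syndrome through excess Ras signalling, was at 36.2, 22.1, 31.45, 40.0 and 33.8 CPM in levodopa replicates 1 to 5. It ran from 28.4 to 42.75 CPM (median 38.4) at 7.5 mg/kg and from 35.0 to 47.8 CPM (median 41.4) at 15 mg/kg. At 15 mg/kg 7 of 10 animals were above every levodopa animal, though the ranges still overlapped. The log2 fold change was 0.19 ± 0.10 at 7.5 mg/kg (edgeR adjusted p = 0.462) and 0.34 ± 0.10 at 15 mg/kg (adjusted p = 0.0691). Between the doses it was 0.15 ± 0.08 (adjusted p = 0.999).

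Spred2, which encodes a close relative of Spred1 with the same Ras-inhibiting role, was at 38.6, 20.9, 34.4, 39.7 and 36.2 CPM in levodopa replicates 1 to 5. Its range was 35.8 to 45.5 CPM (median 40.7) at 7.5 mg/kg and 35.6 to 46.6 CPM (median 41.55) at 15 mg/kg. Apart from replicate 2 the levodopa animals lay within or just below the range of the trapidil animals. The log2 fold change was 0.24 ± 0.10 at 7.5 mg/kg and 0.29 ± 0.10 at 15 mg/kg (edgeR adjusted p = 0.363 and 0.1005), with 10 of 10 animals above the levodopa mean at each dose. The doses differed by 0.05 ± 0.08, with a 95% interval from -0.10 to 0.20.

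Spred3, the third member of the family, was at 7.595, 5.63, 5.96, 6.61 and 9.10 CPM in levodopa replicates 1 to 5. It ran from 6.62 to 10.4 CPM (median 8.16) at 7.5 mg/kg and from 8.04 to 11.8 CPM (median 8.80) at 15 mg/kg. Levodopa replicate 2 was again the lowest, and replicate 5 overlapped the upper part of both trapidil arms. The log2 fold change was 0.26 ± 0.12 at 7.5 mg/kg and 0.39 ± 0.12 at 15 mg/kg (edgeR adjusted p = 0.414 and 0.0799). Among members, that of Spred3 at 15 mg/kg was the largest estimate of this comparison.

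The Spred estimates moved with single levodopa animals. Without replicate 2 the 15 mg/kg values were 0.23 ± 0.09 for Spred1, 0.16 ± 0.07 for Spred2 and 0.33 ± 0.13 for Spred3 (edgeR adjusted p = 0.2545, 0.327 and 0.278). At 7.5 mg/kg they were 0.08 for Spred1, 0.11 for Spred2 and 0.19 for Spred3 (adjusted p = 0.912, 0.812 and 0.821). At an unadjusted edgeR p below 0.05, in either direction, the fit without replicate 2 held 6 members at 15 mg/kg beside 1807 of 14201 genes. With all libraries there were 5 members beside 2757 of 14142 genes. At 7.5 mg/kg the fit without replicate 2 held 1 member beside 936 genes, where all libraries gave 3 beside 1649. Without replicate 4, Spred1 (0.42 ± 0.10, adjusted p = 0.0242) and Spred2 (0.35 ± 0.10, adjusted p = 0.0430) passed at 15 mg/kg, and without replicate 5 Spred3 did (0.51, adjusted p = 0.0354). Spred1 also passed at 15 mg/kg without the 7.5 mg/kg replicate 1 or 6. These 4 fits called between 0.288% and 2.67% of all genes higher. With the endothelial score in the design, the 7.5 mg/kg values of Spred1 and Spred2 were -0.02 and -0.02, and their 15 mg/kg values 0.13 and 0.02 (adjusted p = 0.666 and 0.950). Spred3 at 15 mg/kg was then at 0.33 (adjusted p = 0.445). With the oligodendrocyte score the 15 mg/kg values were 0.23, 0.15 and 0.41 for Spred1, Spred2 and Spred3 (adjusted p = 0.705, 0.797 and 0.510). The endothelial score was 3.34 in levodopa replicate 2, 0.10 to 0.61 in the other levodopa libraries and -1.05 to 0.58 with trapidil. A fit with this score therefore cannot tell cell composition apart from that 1 animal or from the arms. The part of cell composition in these differences was not tested.

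**Figure D3:**
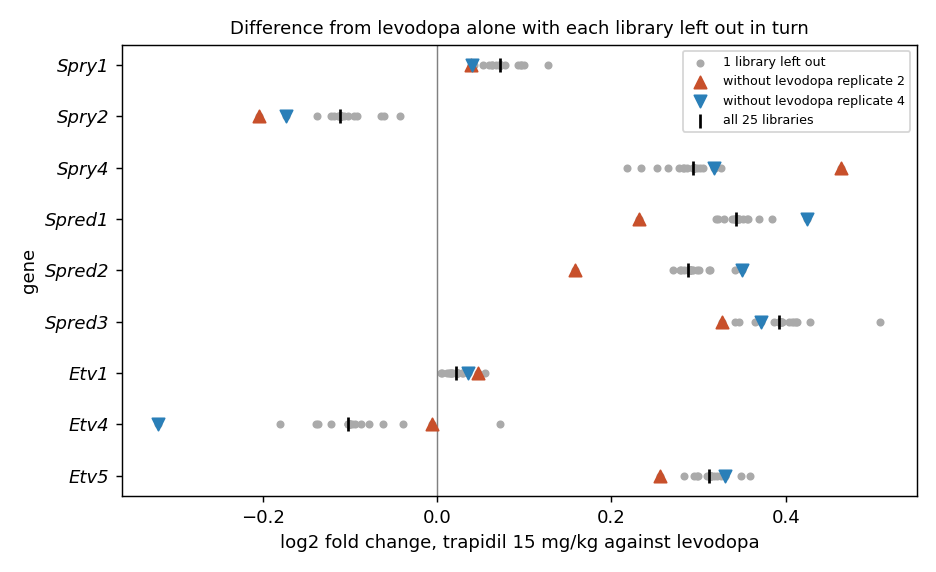
Log2 fold change at 15 mg/kg against levodopa (x axis) of each gene (y axis) with all 25 libraries (black bar) and with each library left out in turn (grey points, with levodopa replicates 2 and 4 as triangles). Leaving out levodopa replicate 2 gave the lowest value for Spred1 (0.23), Spred2 (0.16), Spred3 (0.33) and Etv5 (0.26) and the highest for Spry4 (0.46).

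Of the ETS factors, Etv5 leaned higher with trapidil, Etv1 hardly differed and Etv4 was too variable to place. Etv5, a PEA3 factor induced by fibroblast growth factor and ERK signalling, was at 71.1, 53.05, 60.9, 66.8 and 65.6 CPM in levodopa replicates 1 to 5. It ran from 55.5 to 78.5 CPM (median 70.3) at 7.5 mg/kg and from 61.9 to 93.9 CPM (median 79.0) at 15 mg/kg. At 15 mg/kg 8 of 10 animals exceeded every levodopa animal, and 5 of 10 exceeded every 7.5 mg/kg animal. The log2 fold change was 0.14 ± 0.08 at 7.5 mg/kg (edgeR adjusted p = 0.506) and 0.31 ± 0.08 at 15 mg/kg (adjusted p = 0.0532). Between the doses it was 0.17 ± 0.07 (adjusted p = 0.999), so the order of the medians from levodopa to 15 mg/kg held no step that passed.

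Etv5 at 15 mg/kg was the member nearest to the threshold, and it fell on either side of it by tool and library. DESeq2 and limma-voom called it higher (0.31, adjusted p = 0.0161, and 0.30, adjusted p = 0.0162). EdgeR called it without levodopa replicate 1 (0.36) or 4 (0.33), without the 7.5 mg/kg replicate 1 or 6, or without the 15 mg/kg replicate 4. Over all 25 such fits its adjusted p ran from 0.01875 to 0.1996, the highest being without levodopa replicate 2 (0.26 ± 0.08). Those 5 fits called between 0.225% and 2.67% of all genes higher. At 7.5 mg/kg Etv5 was at 0.09 ± 0.08 without levodopa replicate 2 (adjusted p = 0.896) and at -0.03 with the endothelial score in the design. Its 15 mg/kg value was 0.13 with the endothelial score and 0.10 with the oligodendrocyte score (adjusted p = 0.591 and 0.814).

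Etv1, a PEA3 factor that also marks deep cortical projection neurons, ran from 73.5 to 82.5 CPM with levodopa, 67.1 to 87.6 CPM at 7.5 mg/kg and 62.9 to 87.65 CPM at 15 mg/kg. Its log2 fold change was 0.00 ± 0.07 at 7.5 mg/kg and 0.02 ± 0.07 at 15 mg/kg (edgeR adjusted p = 0.999 and 0.900). The 95% interval at 15 mg/kg ran from -0.11 to 0.16, the narrowest of the members. Without levodopa replicate 2 the values were 0.03 and 0.05 (adjusted p = 0.971 and 0.855). Etv4, the third PEA3 factor, was counted at 32 to 124 reads per library with levodopa. Its level was 6.78, 5.94, 3.63, 1.69 and 5.48 CPM in levodopa replicates 1 to 5, 3.07 to 9.83 CPM (median 4.77) at 7.5 mg/kg and 3.205 to 5.42 CPM (median 4.31) at 15 mg/kg. Levodopa replicate 4 had the lowest Etv4 level of all 25 animals. The coefficient of variation was 43.4%, 41.3% and 15.9% in the 3 arms, and the log2 fold changes were 0.195 ± 0.25 at 7.5 mg/kg and -0.10 ± 0.25 at 15 mg/kg (edgeR adjusted p = 0.786 and 0.865). The interval at 15 mg/kg ran from -0.60 to 0.39. Without levodopa replicate 2 the values were 0.29 and -0.01 (adjusted p = 0.892 and 0.998), and without replicate 4 they were -0.02 and -0.32 (adjusted p = 0.976 and 0.414).

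Among the other ERK genes on the lists used here, 1 output gene, Dusp6, passed at both doses. Of 18 further ERK output genes, 1 fell and 0 rose against levodopa at each dose, with a median log2 fold change of -0.26 (13 negative) at 7.5 mg/kg and -0.15 (11 negative) at 15 mg/kg. Of all genes 0.0283% fell at 7.5 mg/kg and 1.00% at 15 mg/kg, and 0.304% rose at 15 mg/kg. The one that fell was Dusp6, which encodes a phosphatase that inactivates ERK: its mean was 30.8 ± 8.32 CPM (SD) with levodopa alone. At 7.5 mg/kg the mean was 16.5 ± 4.97 CPM and at 15 mg/kg 17.6 ± 2.90 CPM. On the log2 scale the differences were -0.91 ± 0.17 (SE; edgeR adjusted p = 0.0428) and -0.81 ± 0.17 (adjusted p = 0.0217). Dusp6 did not pass at 15 mg/kg without levodopa replicate 1 (-0.68), 2 or 3, nor at 7.5 mg/kg in 19 of the 25 fits that left out 1 library, in which it ran from -1.03 to -0.78. Dusp5, another ERK phosphatase, came nearest between the doses, at 0.82 ± 0.20 (edgeR adjusted p = 0.46), where 0 of 18 passed and the median was 0.05. It was at -1.20 ± 0.24 (adjusted p = 0.0551) at 7.5 mg/kg.

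Of 35 tested genes on the list of the Ras to ERK cascade, which includes kinases downstream of ERK, 0 passed in any comparison. The medians were 0.03, 0.03 and 0.01 at 7.5 mg/kg, at 15 mg/kg and between the doses. Nearest were Rasgrf1, a calcium-activated Ras exchange factor (0.22 ± 0.08 at 7.5 mg/kg, edgeR adjusted p = 0.287), Rps6ka1, a kinase downstream of ERK (-0.57 ± 0.16 at 15 mg/kg, adjusted p = 0.0629), and the receptor adaptor Frs3 between the doses (-0.18 ± 0.08, adjusted p = 0.999). Of 16 Ras off switches and partners of Sprouty or Spred, 1 passed: Rgs14, a scaffold that binds Ras and RAF, rose at 15 mg/kg by 0.56 ± 0.12 (edgeR adjusted p = 0.0267). Rgs14 no longer passed when levodopa replicate 2 (0.50), levodopa replicate 3 or the 15 mg/kg replicate 3 was left out. Rasa3, a Ras GTPase activator, was nearest at 7.5 mg/kg (-0.27 ± 0.08, adjusted p = 0.202). Of 40 tested receptor tyrosine kinases and ligands, 2 fell at 15 mg/kg and 0 passed otherwise. These were Pdgfb, a platelet-derived growth factor ligand (-0.46 ± 0.10, edgeR adjusted p = 0.0282), and Fgf9, a fibroblast growth factor made by neurons (-0.37 ± 0.09, adjusted p = 0.0368). At 7.5 mg/kg Pdgfb was at -0.51 ± 0.10 (edgeR adjusted p = 0.0675) and Fgf9 at -0.28 ± 0.09 (adjusted p = 0.251). For Pdgfb 10 of 10 animals at 7.5 mg/kg were below every levodopa animal, as for 0.0636% of all genes.

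At 15 mg/kg Pdgfb did not pass in 4 fits, those leaving out levodopa replicate 2 (-0.33), levodopa replicate 3, or 1 of the 15 mg/kg replicates 3 and 9. At 7.5 mg/kg Pdgfb passed in 2 of the 25 fits, those without levodopa replicate 4 or the 7.5 mg/kg replicate 1. Fgf9 at 15 mg/kg did not pass in 9 fits. Those left out 1 of levodopa replicates 2, 3 and 5 or of the 15 mg/kg replicates 3 and 6 to 10. Over all 25 fits Fgf9 at 15 mg/kg ran from -0.42 to -0.32. Ret, the receptor kinase of the glial-derived factor family, was nearest between the doses at -0.81 ± 0.33 (edgeR adjusted p = 0.999). Without the 7.5 mg/kg replicate 1, at 16.5 CPM the highest of its arm (median 3.83), it was at -0.51. Against levodopa Ret was at -1.32 ± 0.38 at 15 mg/kg (edgeR adjusted p = 0.0647), and at -0.91 without levodopa replicate 2.

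The next question was whether the members moved together from animal to animal once the arm means were removed. Over 36 pairs and 25 libraries, 0 passed an adjusted p of 0.05 by permutation within arms (10 at an unadjusted p below 0.05). The nearest was Spred1 with Spred2: Pearson r was 0.75 (permutation p = 0.00149, adjusted p = 0.0536) and Spearman rho 0.59 (permutation p = 0.00312, adjusted p = 0.0562). Without the 2 libraries farthest out in Spred1, among them levodopa replicate 2, r was 0.51. Within the 7.5 mg/kg arm it was 0.37 and within the 15 mg/kg arm 0.57 (permutation p = 0.3125 and 0.0866), and without levodopa replicate 2 alone, over 24 libraries, 0.51.

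Spred2 with Etv5 gave r = 0.56 and rho = 0.60 (permutation p = 0.00342 and 0.00156, adjusted p = 0.0616 and 0.0562). The value was 0.52 without the 2 libraries farthest out in Spred2, 0.47 without levodopa replicate 2 alone, 0.60 within the 7.5 mg/kg arm and 0.30 within the 15 mg/kg arm (permutation p = 0.0570 and 0.401). Spry4 with Etv1 gave r = 0.49 and rho = 0.54 (permutation p = 0.00623 and 0.00682, adjusted p = 0.0748 and 0.0562). It was 0.49 without the 2 libraries farthest out in Spry4, and 0.40 and 0.57 within the arms (permutation p = 0.250 and 0.0782). Spry2 with Spry4 was at r = -0.34 and rho = -0.20 (permutation p = 0.2515 and 0.409, adjusted p = 0.533 and 0.5885). Without levodopa replicates 2 and 4 it was -0.01, and without replicate 2 alone 0.01.

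**Figure D4:**
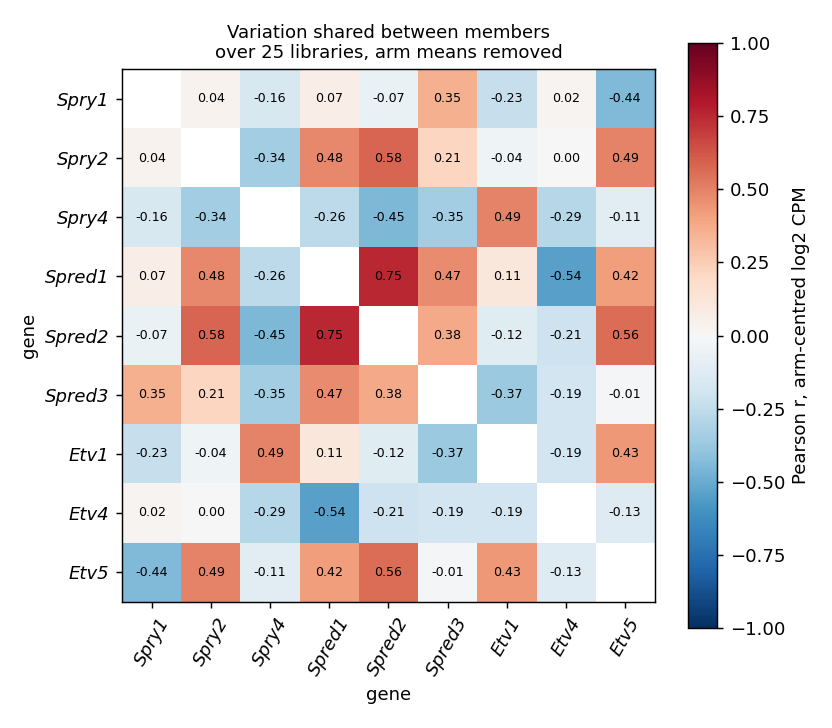
Pearson r between the members' log2 CPM with arm means removed, over 25 libraries; both axes list the genes and the colour scale runs from -1 to 1. The highest value is that of Spred1 with Spred2 (0.75), and the lowest that of Spred1 with Etv4 (-0.54).

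Spred1 with Etv4 was the lowest pair, at r = -0.54 and rho = -0.40 (permutation p = 0.0265 and 0.0708, adjusted p = 0.147 and 0.232). Within the 7.5 mg/kg arm it was -0.86 (permutation p = 0.00127, adjusted over the 36 pairs 0.0457) and within the 15 mg/kg arm 0.09 (permutation p = 0.804), so it did not hold within both. Without the 2 libraries farthest out in Spred1, levodopa replicate 2 and the 7.5 mg/kg replicate 6, it was -0.38, and without levodopa replicate 2 alone -0.55. The 7.5 mg/kg replicate 6 had the highest Etv4 level (9.83 CPM) and the lowest Spred1 level (28.4 CPM) of its arm.

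The genes whose levels followed each member most closely across the 25 libraries, arm means removed, were taken from 12229 others with a mean of at least 1 CPM, as a description. For Spry2 they were Dusp14, a phosphatase of the dual-specificity family (r = 0.87), Rgs2, a regulator of G protein signalling (0.84), and Egr3, an activity-induced transcription factor (0.81). Without levodopa replicate 2 these were 0.79, 0.79 and 0.68. For Spred1 they were Pacs1 (0.89), the activity-regulated transcription factor Mef2d (0.87) and the neuronal adhesion gene Cntn1 (0.86), which were 0.80, 0.77 and 0.76 without that library. For Spred2 they were Ntrk3, the receptor of neurotrophin-3 (0.89), Sez6 (0.88) and the calcineurin subunit Ppp3ca (0.87), which were 0.61, 0.58 and 0.60 without levodopa replicate 2. For Spred3 they were Timm29, Coro2a and Klf16 (0.76, 0.73 and 0.72).

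For Spry4 the nearest were Fam217b (0.81), Dock11 (0.80) and Nrsn1 (0.75; 0.60 without levodopa replicate 2), and for Spry1 the RAF scaffold gene Ksr1 (0.68), Ncald (0.66) and Gpr146 (0.63). For Etv5 they were the thyroid hormone receptor Thrb (0.81), Rpf1 (0.80) and Vat1l (0.78). For Etv1 they were Nfat5 (0.83), Eea1 (0.82) and Sik2 (0.80), and for Etv4 Haghl (0.85), Vwa5b2 (0.84) and Tepsin (0.83). The libraries share depth and tissue composition, and these values were the highest of 12229, so they show likeness over these libraries only.

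**Figure D5:**
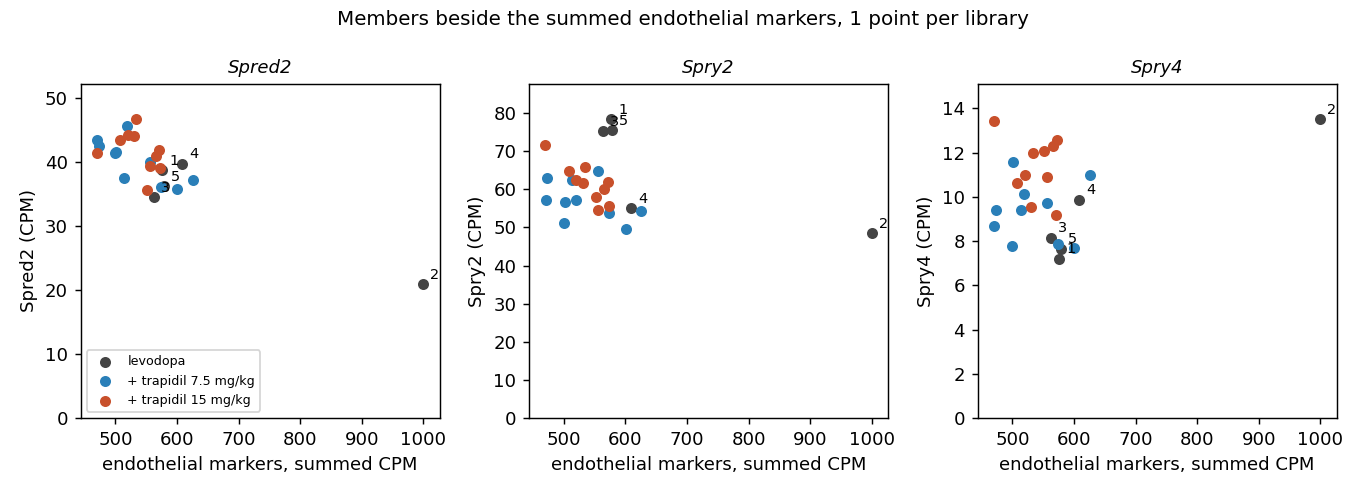
CPM of Spred2, Spry2 and Spry4 (y axes, from 0) against the summed CPM of the endothelial markers (x axis), 1 point per library coloured by arm, with levodopa replicates numbered. Levodopa replicate 2 lies alone at 1000 CPM of endothelial markers, with the lowest Spred2 (20.9 CPM) and Spry2 (48.4 CPM) and the highest Spry4 (13.5 CPM).

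Cell type markers leaned with the arms as well, though few passed. Of the endothelial markers tested, 11 of 11 had negative log2 fold changes at each dose against levodopa (medians -0.37 and -0.39), with 0 called at 7.5 mg/kg and 1 lower at 15 mg/kg. Of 10 oligodendrocyte markers 10 were negative at each dose (medians -0.30 and -0.61), with 5 lower at 15 mg/kg. Astrocyte markers were negative in 10 of 10 at each dose (medians -0.14 and -0.20) with 0 called. Spiny projection neuron markers were positive in 11 of 12 at 7.5 mg/kg and 10 of 12 at 15 mg/kg (medians 0.03 and 0.09) with 0 called. Ciliated ependymal markers were positive in 6 of 6 at each dose (medians 0.71 and 1.29) with 0 called. Their summed levels ran from 2.5 to 34.5 CPM with levodopa (median 4.32, highest in replicate 4). With trapidil they ran from 2.95 to 45.1 CPM (median 20.5) at 7.5 mg/kg and 18.55 to 44.3 CPM (median 32) at 15 mg/kg. Choroid plexus markers were positive in 3 of 5 at each dose (medians 0.53 and 0.60), with 1 lower at 15 mg/kg. They summed to 30.0 CPM in levodopa replicate 2 and to only 2.02 to 12.5 CPM in the other 24 libraries. The part of this library in that call was not tested. Mural markers were negative in 10 of 10 at each dose (medians -0.23 and -0.21) and microglial markers in 9 of 9 and 8 of 9 (medians -0.21 and -0.28), with 0 called. Precursors of oligodendrocytes were negative in 9 of 9 at each dose (medians -0.25 and -0.38), with 1 lower at 15 mg/kg. Cortical neuron markers were negative in 6 of 6 at 7.5 mg/kg and 4 of 6 at 15 mg/kg (medians -0.23 and -0.34) with 0 called. Striatal interneuron markers were negative in 8 of 11 and 7 of 11 (medians -0.15 and -0.03), also with 0 called. The levodopa libraries other than replicate 2 summed to 562.8 to 608.8 CPM for endothelial and 3593 to 4596 CPM for astrocyte markers, within the range of the trapidil libraries. Summed oligodendrocyte markers ran from 10820 to 19830 CPM with levodopa, 7427 to 16340 CPM at 7.5 mg/kg and 6577 to 13960 CPM at 15 mg/kg. With the oligodendrocyte score in the design 0 members were called in any comparison, and Etv5 at 15 mg/kg was at 0.10 where it had been at 0.31.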

How the data were processed

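Whole-number gene counts for 25 striatal libraries, 1 per rat, were deposited by the authors in 1 table. Per the labels' protocols, libraries were made by polyA capture from RNeasy total RNA. The submitters' processing notes name FastQC, STAR and HTSeq and the build Rnor_6.0. Tool versions, annotation and strand setting are not given in the sources used here, so reads of overlapping antisense genes cannot be told apart. Pairs of libraries were compared by chi-square divided by its degrees of freedom (genes with 20 or more reads). It was at least 4.83 over 100 pairs of 1 arm and at least 3.84 over 200 pairs between arms, so none was a repeat.

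Counts were filtered (filterByExpr), scaled by TMM and fitted over all 25 libraries with arm as factor (R 4.3.3, edgeR 4.0.16, quasi-likelihood test, Benjamini-Hochberg over 14142 genes, threshold 0.05; common biological coefficient of variation 0.139). CPM are counts scaled to a common library size with TMM factors; 95% intervals are normal intervals from the SE. Correlations used the log2 of CPM plus 2, with 100000 permutations within arms (10000 where a library was left out). Alternatives used DESeq2 1.42.0, limma 3.58.1 and sva 3.50.0, other filters and scalings, marker scores, a replicate block and leaving out each library.

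The members and lists were chosen with earlier results of these data known. Named beside the members were, per list and comparison, up to 4 called genes of smallest p or, with none called, the gene of smallest p, and the 3 genes most like each member. Promoter windows came from RefSeq GRCr8, matched by symbol; files of that build were used for nothing else.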

Additional observations from a re-analysis of the deposited data

Results flagged for a closer look

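In 27 groups (9 genes in 3 arms), 2 held an animal far from the others by Dixon's criterion; chance marks about 1 group in 20. Spred2 in levodopa replicate 2 was at 20.86 CPM, with the nearest of the other 4 animals at 34.43 CPM, a gap of 0.721 of the range of the arm against a critical value of 0.71. This library also had the highest endothelial, astrocyte and oligodendrocyte marker sums of the 25; their part in its Spred2 level was not tested. Etv1 in the 15 mg/kg replicate 4 was at 62.89 CPM, with the nearest of the other 9 animals at 75.34 CPM, a gap of 0.503 of the range, above the critical value for 10 animals. The same animal had the lowest Spry4 (9.20 CPM) and Etv5 (61.9 CPM) of its arm. It also had the highest oligodendrocyte marker sum of its arm, 13960 CPM against 6577 to 9964 CPM in the rest. The part of these markers in its levels was not tested.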

How the results depend on the processing

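Of 2223 values of members and listed genes under an alternative or without 1 library, 69 changed sign and 0 of those passed the threshold. The cause was not tested. Genes called at 7.5 mg/kg against levodopa (4) were 7 with no low-count filter, 53 with DESeq2, 102 with limma-voom, 1 with only the arms compared, 11 at a threshold of 0.10, 11 with the endothelial score, 34 with 2 surrogate variables and 27 with 2 libraries left out at once (levodopa 2 and 7.5 mg/kg 1). At 15 mg/kg (185) they were 655 with DESeq2, 715 with limma-voom, 448 with only the arms compared, 862 at 0.10, 7 with the cortical, 16 with the endothelial and 8 with the oligodendrocyte score, 15 with 2 surrogate variables and 76 without both libraries. Between the doses (4) they were 13 with limma-voom, 8 with the endothelial score, 8 with 2 surrogate variables and 9 without both libraries. Leaving out 1 library gave 1 to 70, 9 (levodopa replicate 3) to 894 (levodopa replicate 4) and 4 to 8 genes. Members called were 1 at 7.5 mg/kg with the endothelial score, and at 15 mg/kg 3 with DESeq2, 3 with limma-voom, 3 at 0.10 and 0 to 3 without 1 library. Pairs of members passing (0) were 1 within the 7.5 mg/kg arm and 0 to 5 without 1 library, an alternative chosen after seeing the data, with 5 without levodopa replicate 4. Replicate numbers did not pair the animals: of 20 same-numbered pairs 8 correlated over 0.1 (-0.42 to 0.21), and 1 correlated best with its own number. With the replicate block 0 genes were called at 7.5 mg/kg, 0 at 15 mg/kg and 4 between the doses, with 0 members in each.

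Log2 values that changed sign at 7.5 mg/kg were those of Etv1 with RLE (-0.0006) or upper-quartile scaling (-0.0049), no filter (-0.0005), a filter of 1 CPM in 5 libraries (-0.0016), DESeq2 (-0.0004), only the arms compared (-0.001), the cortical (-0.017) and oligodendrocyte (-0.0914) scores, 2 surrogate variables (-0.0707) and the replicate block (-0.0733). Spry1 changed sign with the cortical (0.034) and oligodendrocyte (0.0062) scores and surrogate variables (0.0235), and Spry4 with the oligodendrocyte score (-0.0412) and replicate block (-0.005). With the endothelial score so did Spred1 (-0.0155), Spred2 (-0.0198), Etv5 (-0.0273) and Ret (0.2222), and Ret also with the oligodendrocyte score (0.1377) and surrogate variables (0.1247). At 15 mg/kg Etv4 did with limma-voom (0.1233), the cortical (0.0252), endothelial (0.0852) and oligodendrocyte (0.2064) scores and surrogate variables (0.4278), and Spry1 with limma-voom (-0.015). Etv1 did with the cortical (-0.0057) and oligodendrocyte (-0.1346) scores, surrogate variables (-0.1001) and replicate block (-0.0504). Frs3 did with the endothelial (0.038) and oligodendrocyte (0.0829) scores and surrogate variables (0.0687), and Ret with the oligodendrocyte score (0.1458). Between the doses the oligodendrocyte score turned Spred2 (-0.0116), Etv1 (-0.0432), Rps6ka1 (0.0455) and Ret (0.0081), and surrogate variables turned Etv1 (-0.0294). Without 1 library, signs changed at 7.5 mg/kg for Spry1 (-0.0538 to 0.0423), Spry4 (-0.0675 to 0.1784), Etv1 (-0.0207 to 0.026) and Etv4 (-0.022 to 0.3696), at 15 mg/kg for Etv4 (-0.3199 to 0.0718), and between the doses for Etv1 (-0.0005 to 0.0535), Rasgrf1 (-0.0474 to 0.0147) and Rasa3 (-0.0124 to 0.0369). Depth limits Etv4 most, at 32 to 170 reads per library.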
